A study of Zea mays with 21 samples.

Results

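The catalase genes of maize were followed across leaf and endosperm of wild-type (WT) plants and of the zebra-leaf mutant zb10. The set is 3 of the 50142 IDs in the count table, taken by ID from a list: cat1 is gene:Zm00001d014848, cat2 is gene:Zm00001d027511 and cat3 is gene:Zm00001d054044. The files carry no gene names, so these names rest on that list. The RefSeq table for B73 has 3 genes with the synonyms cat1, cat2 and cat3 but none of the count table's IDs. All 3 genes passed the filter on low counts in every comparison.

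The 21 libraries formed 7 groups of 3. At the V4 leaf stage these were WT leaf, the green section of zb10 leaf and the white section of zb10 leaf. At the V9 stage they were WT leaf and zb10 leaf, for which no section is named, and at 16 days after pollination WT endosperm and zb10 endosperm. The series ties zb10 to the gene ZmPTOX. PTOX, the terminal oxidase of plastids, passes electrons from plastoquinol to oxygen. The mutant is represented by this single line, and the labels give no hour of sampling and no number of plants per library. Library totals ran from 28237880 to 53092962 counts, with WT V9 replicate 1 apart at 123050963. The mutated gene and tissue marker genes were not checked by name, since the IDs are not paired with names.

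Catalase is a haem enzyme that splits hydrogen peroxide into water and oxygen. In leaves much of this peroxide arises in peroxisomes, where glycolate oxidase acts in photorespiration, and more arises when plastids take up light they cannot use. Maize has 3 catalase genes with different sites of expression: cat1 is known from kernels and seedlings and responds to abscisic acid and oxidative stress, cat2 is known from bundle sheath cells of the green leaf and from the germinating kernel, and cat3 is known from mesophyll cells and stems, with a transcript level that follows a daily rhythm.

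In these data the genes had different patterns. The cat1 transcript lay between 112 and 190 CPM (counts relative to the scaled library total) in every leaf and endosperm library. The cat2 transcript was lower in endosperm than in leaf. The cat3 transcript was lowest in endosperm, at 0.142 to 4.06 CPM, and reached its highest levels at V9, with a wide scatter between replicates. In the V4 white section cat3 was 2.23-fold below WT, and among the 4 comparisons of zb10 with WT this was the only catalase difference called, a call lost on leaving out WT replicate 2 or white replicate 2.

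**Figure D1:**
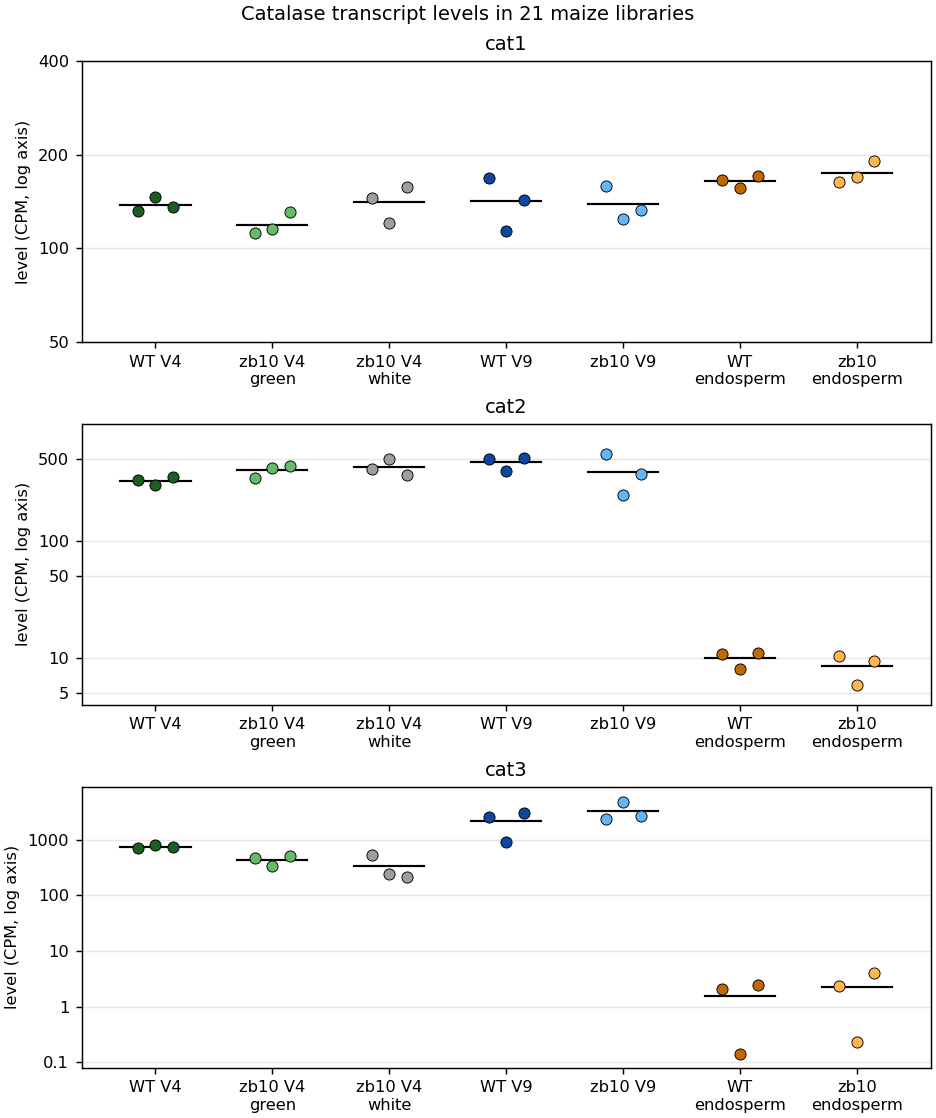
Level of each catalase gene (CPM, log axis) in each of the 21 libraries, 3 per group, with a bar at the group mean. The cat1 points lie between 112 and 190 CPM, cat2 is near 10 CPM in endosperm, and cat3 spans 0.142 to 4737 CPM.

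The level of cat1 in WT V4 leaf was 132, 147 and 136 CPM in replicates 1 to 3. The green section had 112, 116 and 131 CPM, all below the WT values. The white section had 146, 121 and 157 CPM, on both sides of WT. At V9 the WT libraries had 168, 114 and 143 CPM and the zb10 libraries 158, 125 and 133 CPM, which overlapped. Endosperm had 166, 156 and 171 CPM in WT and 164, 170 and 190 CPM in zb10. The levels of cat1 thus differed by at most 1.48-fold within a group and the group means ran from 119 ± 9.86 CPM in the green section (SD, n = 3) to 175 ± 13.9 CPM in zb10 endosperm.

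From high to low, the order of cat1 was zb10 endosperm, WT endosperm, WT V9, white section, zb10 V9, WT V4 and green section. No neighbouring groups in this order were called apart in the fit of all 21 libraries (edgeR, adjusted p of 0.168 to 1). Only WT V4 and the green section had ranges that did not overlap, which was so for 20.9% of genes. The ends of the order, zb10 endosperm and the green section, differed by 0.55 on the log2 scale (SE 0.14). These groups were picked as the highest and lowest of 7 means, so this is a description with no test; 74.4% of all genes tested were called between them. Scaled by library size alone, it was 0.32 and the white section headed the order. Neighbours in a sorted order lie closest. Of the other endosperm and leaf pairs by TMM, zb10 endosperm was called above WT V4 (edgeR adjusted p = 0.0353) and zb10 V9 (0.038). WT endosperm was called above the green section (0.00581). In these contrasts 24205, 23715 and 24430 of 32302 genes were called. With library size alone these pairs had adjusted p of 0.296 to 0.951. The remaining endosperm and leaf pairs had 0.055 to 0.168 by TMM.

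The level of cat2 in WT V4 leaf was 329, 298 and 349 CPM. In the green section it was 348, 418 and 441 CPM, with the lowest inside the WT range. In the white section it was 415, 496 and 364 CPM, all above WT. WT V9 leaf had 504, 393 and 510 CPM, and zb10 V9 leaf had 548, 246 and 373 CPM, the widest scatter of cat2 among the 5 leaf groups. In endosperm cat2 stood at 10.9, 8.12 and 11 CPM in WT and 10.5, 5.88 and 9.38 CPM in zb10, far below every leaf library.

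The order of cat2 was WT V9, white section, green section, zb10 V9, WT V4, WT endosperm and zb10 endosperm. The 5 leaf groups, with means of 325 ± 25.4 to 469 ± 65.7 CPM (SD, n = 3 each), overlapped from neighbour to neighbour. The step from WT V4 leaf to WT endosperm was 32.5-fold (log2 difference 5.02, SE 0.29, adjusted p = 1.91e-11), in a contrast in which 75.7% of genes were called. The endosperm groups, at 10 ± 1.64 and 8.59 ± 2.42 CPM, overlapped.

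The level of cat3 in WT V4 leaf was 701, 789 and 741 CPM, a narrow range. The green section had 461, 335 and 500 CPM and the white section 538, 241 and 210 CPM, all below the lowest WT library. White section replicate 1 stood apart from the other two, above all 3 green libraries. At V9, WT leaf had 2525, 917 and 3048 CPM and zb10 leaf 2371, 4737 and 2650 CPM. WT V9 replicate 2 was the lowest of the 6, close to the V4 level, and zb10 V9 replicate 2 the highest. Endosperm had 2.09, 0.142 and 2.47 CPM in WT and 2.33, 0.228 and 4.06 CPM in zb10, from 65, 4, 90, 75, 6 and 99 counts.

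The order of cat3 was zb10 V9, WT V9, WT V4, green section, white section, zb10 endosperm and WT endosperm. Among neighbours only the white section and zb10 endosperm were called apart, at 150-fold (log2 difference 7.23, SE 0.83, adjusted p = 2.98e-07; 74.0% of genes called). Ranges also did not overlap between WT V9 and WT V4 or between WT V4 and the green section. The latter held for 20.9% of genes, and for the WT stages the share was not counted. With library size alone WT V9 and WT V4 were also called apart (adjusted p = 0.0495).

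The scatter of cat3 between replicates was large for the whole transcriptome. Its pooled SD within leaf groups was 0.60 on the log2(CPM + 0.5) scale, above that of 97.0% of 16656 IDs with a mean of at least 2 on that scale, whose median was 0.19. The SD of cat2 was 0.31, above 81.1% of IDs, and that of cat1 was 0.18, above 45.3%. At V9 alone cat3 had an SD of 0.76 and at V4 alone 0.46.

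Within V4 leaf, the question was how the catalase genes stood in the white and the green section of the mutant beside WT. Both sections were set against 1 shared set of 3 WT libraries. In the white section 1 of 3 catalase genes was called, cat3, where 31.5% of 26871 genes were called in that comparison, so being called is common there. The cat3 transcript fell by 1.16 on the log2 scale (SE 0.31, 95% interval -1.85 to -0.47, adjusted p = 0.0177). In these bulk samples fewer cells of a type and less RNA per cell cannot be told apart. The call was lost without WT replicate 2 (adjusted p = 0.0567), without white replicate 2 (adjusted p = 0.0607) and in the fit of all 21 libraries (adjusted p = 0.206). The log2 fold change stayed at or below -0.93 in each of these and in every other alternative run.

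The cat2 transcript was 1.32-fold higher in the white section (log2 fold change 0.40, SE 0.15, 95% interval 0.08 to 0.72) and missed the threshold (adjusted p = 0.0608). It passed with library size alone (log2 fold change 0.53, adjusted p = 0.0155), a scaling that shifted the median of all genes by 0.14, and with DESeq2 (0.40, adjusted p = 0.0214), and also without white replicate 3 (0.49, adjusted p = 0.0233). The cat1 transcript stood at 1.03-fold (log2 fold change 0.05, SE 0.12, 95% interval -0.21 to 0.31, adjusted p = 0.796). The ranges of cat2 and cat3 did not overlap with WT, in opposite directions, which was so for 47.9% of genes.

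In the green section none of the 3 genes was called by edgeR, against 0.763% of genes. At an unadjusted p under 0.05 there was 1, cat3, and DESeq2 called 0. The cat3 level was 1.72-fold below WT (log2 fold change -0.78, SE 0.31, 95% interval -1.47 to -0.09, adjusted p = 0.33). With the green section and WT fitted without the white libraries, the difference was the same size and passed (-0.78, adjusted p = 0.0419). The cat2 level was 1.24-fold above WT (log2 fold change 0.31, SE 0.15, adjusted p = 0.427) and that of cat1 1.16-fold below (log2 fold change -0.21, SE 0.12, adjusted p = 0.519). The ranges of cat1 and cat3 did not overlap with WT, which held for 20.9% of genes. By library size alone the cat1 ranges did overlap, with green replicate 3 at 141.7 CPM and WT replicate 3 at 136.9 CPM.

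Between the white and the green section 0 of 3 catalase genes were called by edgeR, where 24.4% of genes were. None had an unadjusted p under 0.05, and DESeq2 called 0. No member's ranges were apart, against 39.0% of genes. Sections of the same replicate number deviated together, so they were also compared within the 3 pairs. White minus green, cat1 was higher in 3 of 3 pairs (log2 differences of 0.38, 0.07 and 0.27), cat2 in 2 and cat3 in 1. The log2 ratio of cat3 to cat1 was lower in 3 of 3 pairs, by differences of -0.16, -0.54 and -1.52, and that of cat3 to cat2 in 3 of 3, by -0.03, -0.72 and -0.97. Each of these 3 of 3 patterns gave p = 0.25 in a two-sided exact sign-flip test, the smallest that 3 pairs allow. With the replicate number as a block the adjusted p of cat1 was 0.161 in edgeR. The cat3 log2 fold change, white over green, was -0.38 (SE 0.31, 95% interval -1.06 to 0.31, adjusted p = 0.417). Without white replicate 1 it was -0.92 (adjusted p = 0.00818). For cat1 it was 0.26 (SE 0.12, 95% interval -0.00 to 0.52, adjusted p = 0.142) and without white replicate 2 0.36 (adjusted p = 0.0484). For cat2 it was 0.09 (SE 0.15, 95% interval -0.23 to 0.42, adjusted p = 0.693).

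**Figure D2:**
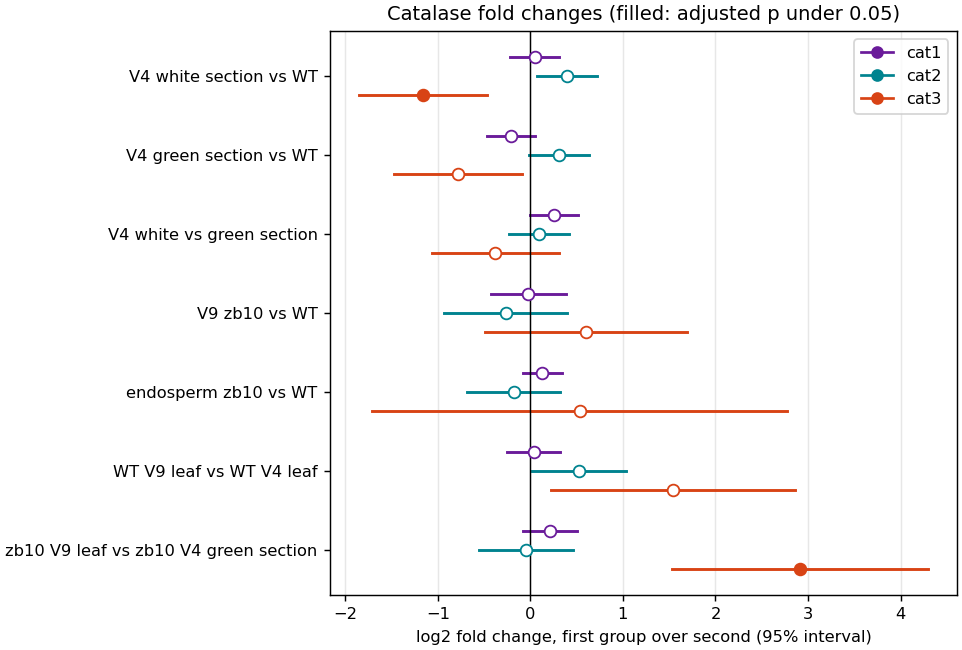
Log2 fold change of each catalase gene, first group over second, with its 95% interval, in 7 comparisons. Filled points have an adjusted p under 0.05: cat3 in the white section against WT, at -1.16, and cat3 in zb10 V9 leaf against the green section, at 2.91.

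The balance between the catalase transcripts was also compared within libraries, as the log2 ratio of 2 genes' counts, which does not depend on scaling. The ratio itself depends on gene length, so only its difference between groups is read. In WT V4 leaf the log2 ratio of cat3 to cat1 was 2.41, 2.43 and 2.44, nearly the same in the 3 libraries. It was 2.04, 1.54 and 1.94 in the green section and 1.88, 0.99 and 0.42 in the white section, all lower. The mean difference from WT was -0.59 in the green and -1.33 in the white section.

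The log2 ratio of cat3 to cat2 was 1.09, 1.40 and 1.09 in WT V4 leaf. It was 0.41, -0.32 and 0.18 in the green section and 0.37, -1.04 and -0.79 in the white section. The mean difference from WT was -1.10 and -1.68. In each of these 4 cases the ranges were apart, but the cases share cat3 and the same WT libraries and are not independent. The share of other gene pairs with ranges apart was not counted. Each of the 4 cases gave p = 0.1 in a two-sided exact permutation test, the lowest value this design can reach, and 0.3 adjusted over 15 tests. For the ratio of cat1 to cat2 the difference from WT was -0.52 in the green section (exact p = 0.1, 0.3 adjusted) and -0.35 in the white section, where it overlapped with WT (exact p = 0.3, 0.409 adjusted).

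**Figure D3:**
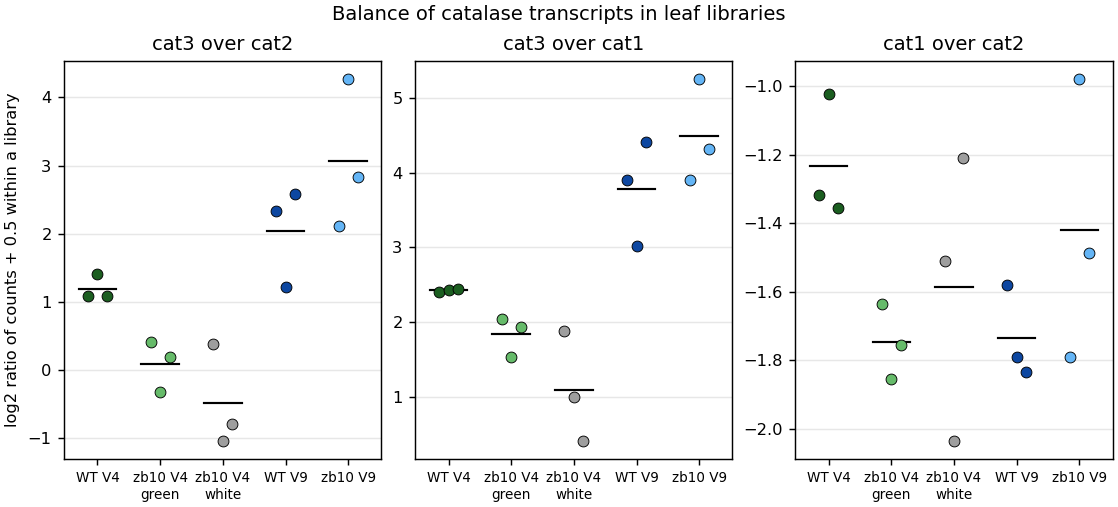
Log2 ratio of the counts of 2 catalase genes within each leaf library, 3 per group, with a bar at the mean. All 6 zb10 V4 libraries lie below the WT V4 libraries for cat3 over cat2 and for cat3 over cat1, and the V9 libraries spread over a wider range.

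The summed level of the 3 catalase genes was 1207 ± 39 CPM in WT V4 leaf (SD, n = 3), 953 ± 105 CPM in the green section and 896 ± 187 CPM in the white section. Both sections lay below WT without overlap, as cat3 alone did (exact p of the sums = 0.1 each, the smallest possible, and 0.25 adjusted over 5 tests). Among single genes, 20.9% had ranges apart from WT in the green section and 47.9% in the white section. White minus green, the difference of the sums was -56.9 CPM (exact p = 0.7), and 29.6 CPM with library size alone.

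At V9 the zb10 leaf was compared with WT leaf of the same stage. None of the 3 catalase genes was called by edgeR, against 0.046% of genes. None had an unadjusted p under 0.05, and DESeq2 called 0. The ranges of all 3 overlapped, while 12.9% of genes had ranges apart. The cat3 log2 fold change was 0.60 (SE 0.47, 95% interval -0.49 to 1.70, adjusted p = 0.825). On leaving out 1 library it ran from 0.23 without zb10 replicate 2 to 0.93 without WT replicate 3. That of cat2 was -0.26 (SE 0.29, 95% interval -0.93 to 0.40, adjusted p = 0.871), and ran from -0.59 without zb10 replicate 1 to -0.02 without zb10 replicate 2. That of cat1 was -0.02 (SE 0.17, 95% interval -0.43 to 0.38, adjusted p = 0.984). The interval of cat3 includes changes of more than 2-fold.

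In zb10 V9 replicate 2 the highest cat3 level of the series stood beside the lowest cat2 level among leaf libraries. The log2 ratio of cat3 to cat2 was 4.27 there, against 2.11 and 2.83 in the other zb10 libraries and 2.33, 1.22 and 2.58 in WT. The summed level at V9 was 2774 ± 1196 CPM in WT and 3780 ± 1150 CPM in zb10 (SD, n = 3; exact p = 0.6).

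The log2 fold change of cat3 was -1.16 in the white section at V4 and 0.60, not called, at V9, and the difference itself was tested. It was 1.80 on the log2 scale (SE 0.64, 95% interval 0.40 to 3.21) and missed the threshold (adjusted p = 0.0976), in a contrast in which 9.61% of genes were called. It passed with DESeq2 (1.78, adjusted p = 0.0226) and without white replicate 1 (2.36, adjusted p = 0.0416). Against the green section the difference was 1.37 (SE 0.54, adjusted p = 0.433, 0.0251% of genes called). Neither cat1 nor cat2 passed in either contrast (adjusted p of 0.278 to 0.973). The V9 labels name no section, so stage and section change together here.

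Leaf stages were compared within each genotype. For zb10 the V4 side was the green section and the V9 labels name no section, so stage and section change together there. In both genotypes the hour of sampling is not given, so its part in a stage difference was not tested. In zb10, cat3 was 7.53-fold higher at V9 than in the green section at V4 (log2 fold change 2.91, SE 0.66, adjusted p = 0.00189), and this call held in every alternative run. It was the 1 catalase gene of 3 called there, where 37.7% of genes were. In WT the level at V9 was 2.91-fold that at V4 (log2 fold change 1.54, SE 0.63, 95% interval 0.22 to 2.86) and missed the threshold (adjusted p = 0.0611). Without WT V9 replicate 2 the log2 fold change was 1.91 (adjusted p = 0.0233), and with the WT leaf groups fitted alone it was 1.53 (adjusted p = 0.0198).

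None of the 3 genes was called between the WT stages by edgeR, where 38.1% of genes were. Of the 3, 2 had an unadjusted p under 0.05, cat2 and cat3, and DESeq2 called 0. The cat2 log2 fold change was 0.53 in WT (SE 0.24, adjusted p = 0.0946), and 0.52 with the WT leaf groups alone (adjusted p = 0.0279). In zb10 it was -0.05 (SE 0.24, adjusted p = 0.948). The cat1 log2 fold change was 0.04 in WT (SE 0.14, adjusted p = 0.911) and 0.22 in zb10 (SE 0.14, adjusted p = 0.237).

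**Figure D4:**
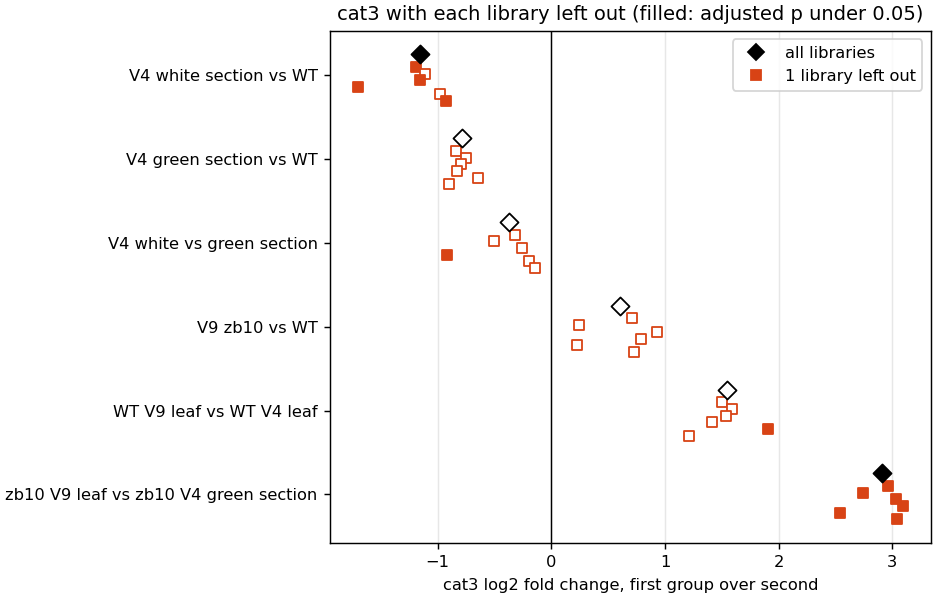
Log2 fold change of cat3, first group over second, with all libraries (diamonds) and with 1 library left out (squares) in the 6 comparisons among leaf groups, filled where the adjusted p was under 0.05. None of these 6 changes sign, while the endosperm comparison, not drawn, ran from -0.26 to 1.06, and the value for the white against the green section runs from -0.92 to -0.14.

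Each endosperm library held 4404 to 6237 counts of cat1, 155 to 402 of cat2 and 4 to 99 of cat3, which sets the precision of each gene there. From WT V9 leaf to WT endosperm cat2 was 46.8-fold lower (log2 fold change -5.55, SE 0.29, adjusted p = 6.99e-12) and cat3 1349-fold lower (log2 fold change -10.40, SE 0.93, adjusted p = 1.06e-08). Thus 2 of 3 members were called, where 74.8% of genes were. The cat1 log2 fold change was 0.21 (SE 0.14, adjusted p = 0.168), and -0.10 with library size alone, a scaling that moved the median of all genes to -0.32.

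Endosperm of zb10 was compared with WT endosperm. None of the 3 genes was called by edgeR (0.0355% of genes called). None had an unadjusted p under 0.05, DESeq2 called 0, and the ranges of all 3 overlapped, with 11.7% of genes apart. The cat1 log2 fold change was 0.13 (SE 0.09, 95% interval -0.08 to 0.34, adjusted p = 0.913). That of cat2 was -0.18 (SE 0.22, 95% interval -0.69 to 0.32, adjusted p = 0.945). That of cat3 was 0.53 (SE 0.98, 95% interval -1.71 to 2.77, adjusted p = 0.965), an interval that holds large changes in both directions. With the replicate number as a block the cat3 value was 0.53 with an SE of 0.34, again not called (edgeR adjusted p = 0.844). The mutant effect in endosperm did not differ detectably from that at V9 for any of the 3 genes (edgeR adjusted p = 1 for each, no unadjusted p under 0.05, DESeq2 0, 0.0392% of genes called).

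The lowest cat3 counts in endosperm stood beside the lowest traces of leaf transcripts. Replicate 2 of WT had 4 counts, or 0.12 CPM by library size alone (95% exact Clopper-Pearson interval 0.0326 to 0.307). Replicate 2 of zb10 had 6 counts, or 0.21 (interval 0.0772 to 0.458). These intervals cover counting error only. The summed level of the 100 most abundant V9 leaf transcripts at least 16-fold lower in endosperm was 822, 594 and 815 CPM in WT and 708, 547 and 601 CPM in zb10, lowest in replicate 2 of each genotype. Per 10000 CPM of this trace cat3 stood at 2.39 to 67.4 in endosperm, against 37 to 230 in V9 leaf.

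With a limit of 256-fold, chosen after the values were seen, the trace was 207, 47.8 and 225 CPM in WT and 188, 44.3 and 64.9 CPM in zb10, again lowest in replicate 2 of each. Per 10000 CPM of it, cat3 stood at 101, 29.7 and 110 in WT endosperm and at 124, 51.4 and 625 in zb10 endosperm. In V9 leaf the same quantity was 161, 40.9 and 175 in WT and 151, 253 and 151 in zb10. The higher limit picks transcripts nearer to the endosperm drop of cat3 itself, which brings the ratios in leaf and endosperm closer by construction; the endosperm median was 27.9 per 10000 at 16-fold and 105.5 at 256-fold. The part of the trace in the endosperm values of cat3 was not tested.

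**Figure D5:**
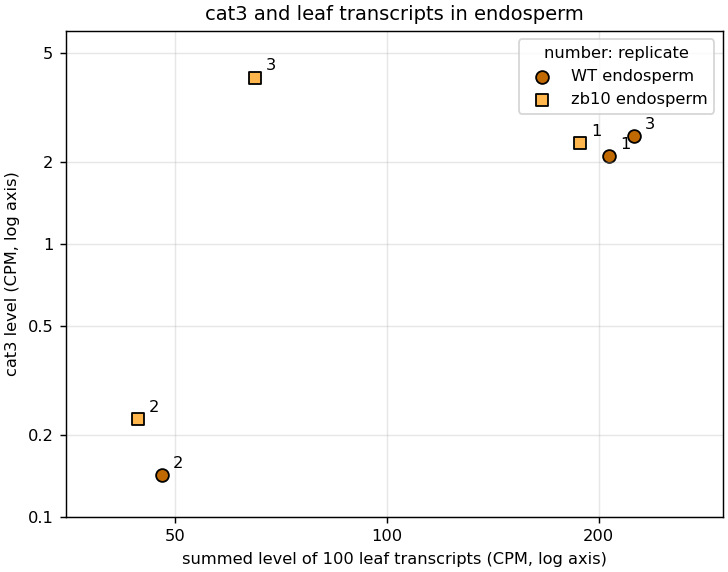
Level of cat3 (CPM, log axis) against the summed level of the 100 leaf transcripts of the 256-fold limit (CPM, log axis) in the 6 endosperm libraries, numbered by replicate. Replicate 2 of each genotype is lowest on the x axis and on the y axis, and zb10 replicate 3 has the highest cat3 level at 64.9 CPM of leaf transcripts.

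The IDs with the most similar pattern over the 15 leaf libraries were found by Pearson correlation of log2(CPM + 0.5) among 16656 IDs, given as a description, since libraries of a group and stage share their source. The closest to cat3 were gene:Zm00001d051761 (r = 0.973) and gene:Zm00001d016474 (r = 0.972). The first had leaf means from 71.5 CPM in the white section to 216 CPM in zb10 V9, with the 5 leaf groups in the order of cat3. In endosperm it stood at 97.9 CPM in WT and 85.8 CPM in zb10, unlike cat3.

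The closest to cat2 were gene:Zm00001d010566 (r = 0.889) and gene:Zm00001d011992 (r = 0.881), and the first had means of 40.7 and 41.9 CPM in endosperm against 38 to 48.9 CPM in leaf, unlike cat2. The closest to cat1 were gene:Zm00001d037354 (r = 0.905) and gene:Zm00001d036482 (r = 0.888), with endosperm means of 44.9 and 45.9 CPM for the first against 6.03 to 11.6 CPM in leaf. These IDs carry no annotation in the files.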

How the data were processed

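RNA-seq covered WT and zb10 leaf and endosperm. Per the labels' protocols, a column kit gave total RNA, and a SMARTer mRNA kit the libraries. The authors deposited raw counts per gene; aligner, counter, genome build and strand setting were not given in the sources used here. Reads shared by the 3 similar catalase genes may have been split or dropped. In the count columns the mutant is zb9 and V4 leaf is 3L, and each was matched to the only labelled group it could be. Columns with no sample numbered 0. Replicates are biological per the series design, with no word on plants per library.

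All genes were tested by the quasi-likelihood F-test of edgeR 4.0.16 (R 4.3.3). Scaling was TMM, filterByExpr kept genes at its settings of 10 (count) and 15 (total), and calls needed a p under 0.05 after Benjamini-Hochberg adjustment. V4 groups were fitted together, V9 and endosperm each alone, stage and tissue contrasts in 1 fit of 21 libraries, and differences between mutant effects over the 4 groups involved. Standard errors and 95% intervals are those of the F-test. CPM are counts relative to library totals after TMM scaling over all libraries. Library totals of 28237880 to 123050963 set the precision. Ratios and sums were compared with exact two-sided permutation tests (scipy 1.17.1). The fits were tested on simulated counts. DESeq2 1.42.0 was an alternative, beside other scalings, filters, fits, a replicate block and leaving out each library.

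The 3 genes, the pathway and tissue lists and the tests were chosen with earlier results of these data known. None of the 50142 IDs (0 matches) is in the RefSeq table of B73 NAM-5.0, so the lists of other hydrogen peroxide genes and of tissue markers, which were to be matched by name, were not used here. IDs of like pattern were the 2 of highest Pearson correlation of log2(CPM + 0.5) with each catalase gene over 15 leaf libraries, at a mean of at least 2. Replicate numbers were taken to pair the white and green sections: same-numbered libraries deviated together, with correlations of 0.123, 0.135 and 0.222. The pairing comes from these values, and the labels only number the samples. Same-numbered WT and zb10 endosperm libraries also had positive correlations, but small ones, of 0.014, 0.015 and 0.035. For WT with zb10 at V9 the same-numbered correlations were 0.188, 0.053 and -0.066, the first above the 0.123 and 0.135 of the sections. With WT V4 they were -0.064, -0.111 and -0.024 for the white section and 0.047, -0.008 and -0.068 for the green section.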

Additional observations from a re-analysis of the deposited data

How the results depend on the processing

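In the comparisons fixed by the design, the called results were the lower cat3 level in the white section, the higher cat3 level in zb10 V9 leaf than in the green section, and the lower cat2 and cat3 levels in WT endosperm than in WT V9 leaf. The last 3 held in every alternative run. Of the steps between neighbours in the order of groups, WT V4 leaf against WT endosperm for cat2 and white section against zb10 endosperm for cat3 were called with either scaling. The cat3 call in the white section against WT was lost with all 21 libraries in the fit (log2 fold change -1.17). It was also lost on leaving out WT replicate 2 or white replicate 2. With each library left out, the log2 fold change ran from -1.71 to -0.93. The cause was not tested. Calls gained were cat2 in white against WT with library size alone (0.53) and with DESeq2 (0.40), and cat3 in green against WT with those groups alone (-0.78). In WT V9 against V4, cat2 (0.52) and cat3 (1.53) gained calls with the compared groups alone, and cat3 also with library size alone (1.61), which raised the count of cat3 neighbours called apart to 2. The difference of the cat3 effect between V9 and white gained a call with DESeq2 (1.78). With library size alone values that were not called changed sign for cat1 at V9 (0.013), for cat2 in zb10 V9 against green (0.046), for cat1 in WT endosperm against WT V9 (-0.10) and for the sum in white against green (29.6 CPM).

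Leaving out each library, gave log2 ranges of -0.046 to 0.15 (cat1) and 0.27 to 0.49 (cat2) for white against WT. White against green gave 0.17 to 0.36 (cat1), -0.032 to 0.19 (cat2) and -0.92 to -0.14 (cat3). The range at V9 was -0.15 to 0.10 (cat1), -0.59 to -0.02 (cat2) and 0.23 to 0.93 (cat3), and -0.33 to 0.017 (cat2) and -0.26 to 1.06 (cat3) in endosperm. For WT V9 against V4 it was -0.11 to 0.17 (cat1) and 1.21 to 1.91 (cat3), for cat2 in zb10 V9 against green -0.38 to 0.20, and for cat1 in WT endosperm against WT V9 0.074 to 0.35, where leaving out WT V9 replicate 1 gave a call (adjusted p = 0.0353). For V9 minus white it was -0.17 to 0.083 (cat1) and 1.39 to 2.36 (cat3). For endosperm minus V9 it was -0.0097 to 0.32 (cat1), -0.18 to 0.39 (cat2) and -0.86 to 0.40 (cat3). The sum in white against green ran from -158 to 25.5 CPM. Log2 ratios ran from -0.025 to 0.39 (cat1 over cat2, white against green), and in endosperm from -0.39 to 1.71 (cat3 over cat2) and -0.83 to 1.61 (cat3 over cat1).

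A replicate block changed no catalase call; paired, cat3 in white against green stood at -0.45, and at -0.50 with the sections alone, a fit added after seeing the data (adjusted p = 0.22). The counts of all genes called moved by over 1.5 times from 205 for green against WT (120 with the block, 75 with all libraries, 459 with those groups alone, 878 with DESeq2, 40 to 90 on leaving out a library), from 12 at V9 (3, 63 and 230 with the block, all libraries and DESeq2, 23 unfiltered, 5 to 146) and from 9 in endosperm (3, 15 and 114, 27 unfiltered, 0 to 13, the 0 by edgeR with 1622 at an unadjusted p under 0.05). They did so from 2708 for V9 minus white (4535 with DESeq2, 1460 to 3573), from 7 for V9 minus green (0 by edgeR with the block, with 2460 at an unadjusted p under 0.05, 4 with library size alone, 381 with DESeq2, 0 to 216 on leaving out a library, each 0 by edgeR with 2209 to 2693 at an unadjusted p under 0.05) and from 12 for endosperm minus V9 (5 with the block, 23 with all libraries, 198 with DESeq2). The 146, 3573 and 216 are without WT V9 replicate 2. Calls in white against WT were 4463 higher and 3995 lower, and 5559 and 2491 with library size alone; in white against green 3616 and 2936, and 4493 and 1621; for V9 minus white 1329 and 1379, and 727 and 1753. Counts of 4 and 6 limit cat3 in endosperm.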
